A study of Mus musculus with 6 samples.

Results

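The genes described here are 10 regulators of mitochondrial content and fuel use in muscle: the coactivators Ppargc1a, Ppargc1b and Perm1, the nuclear receptors Esrra, Esrrb, Esrrg, Ppara and Ppard, and the nuclear-encoded factors Nrf1 and Tfam. They were chosen by name, as array probe sets whose annotated gene symbol is one of these names, and all 10 were found among the 22180 genes measured, each on 1 probe set of its own. RNA came from gastrocnemius, a calf muscle, of 6 mice on 1 Affymetrix expression array each. The 3 control mice were labelled Floxed TAK1, so their TAK1 gene carried sites for deletion and was not deleted. The 3 others were littermates labelled muscle-specific TAK1-knockout, taken 3 weeks after the deletion. TAK1, encoded by Map3k7, is a protein kinase that couples receptors of cytokines and of TGF-beta ligands to NF-kB and MAP kinases. The labels name no promoter or agent for the deletion, and no age, sex or strain of the mice.

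PGC-1alpha, the product of Ppargc1a, binds no DNA itself. It is recruited by nuclear receptors, chiefly the estrogen-related receptors (ERR) and the peroxisome proliferator-activated receptors (PPAR), and raises transcription of their targets. ERR targets encode respiratory chain and citrate cycle proteins, PPAR targets encode proteins of fatty acid uptake and oxidation, and NRF1 and TFAM serve the nuclear and the mitochondrial genome. In skeletal muscle the system is best known from endurance exercise and from oxidative fibres.

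Values are log2 levels as deposited, so a difference of 1 is a doubling. Knockout and control arrays were compared with limma, which borrows information on the spread from all genes, and a gene was called at a Benjamini-Hochberg adjusted p under 0.05 over all 22180 genes. Array medians lay between 5.78 and 5.84, and Pearson's r between arrays, across genes, which are not independent replicates, was 0.990 to 0.992 within groups and 0.985 to 0.990 between them. Map3k7 had a mean level of 8.40 ± 0.07 (SD, n = 3) in the controls and of 8.22 ± 0.06 in the knockouts, with all 3 knockout values below all control values and no call (limma, adjusted p = 0.686). By its label the deletion is muscle-specific, so other cells of the tissue carry the gene, and neither the deleted exons nor those under the probe set are named, so this level is no check of the labels. Of 8 muscle fibre markers, 8 lay above the level taken as background, which was 5.85 (the 95th percentile of olfactory and vomeronasal receptor genes).

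None of the 10 regulators was called (limma), where 0.0947% of all genes were. Ppargc1a alone had an unadjusted p under 0.05, a threshold that 8.04% of all genes passed (3.93% higher and 4.12% lower in the knockout), and it alone had groups that did not overlap, as did 13.4% of all genes (6.74% with the knockout above and 6.65% with it below). In the knockout 6 of the regulators had a higher mean and 4 a lower one, and their median log2 difference was 0.13, while 49.9% of all genes were higher, with a median of −0.00032. With 1 of 10 genes past a threshold that about as large a share of all genes passed, these counts show nothing particular to the regulators.

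**Figure D1:**
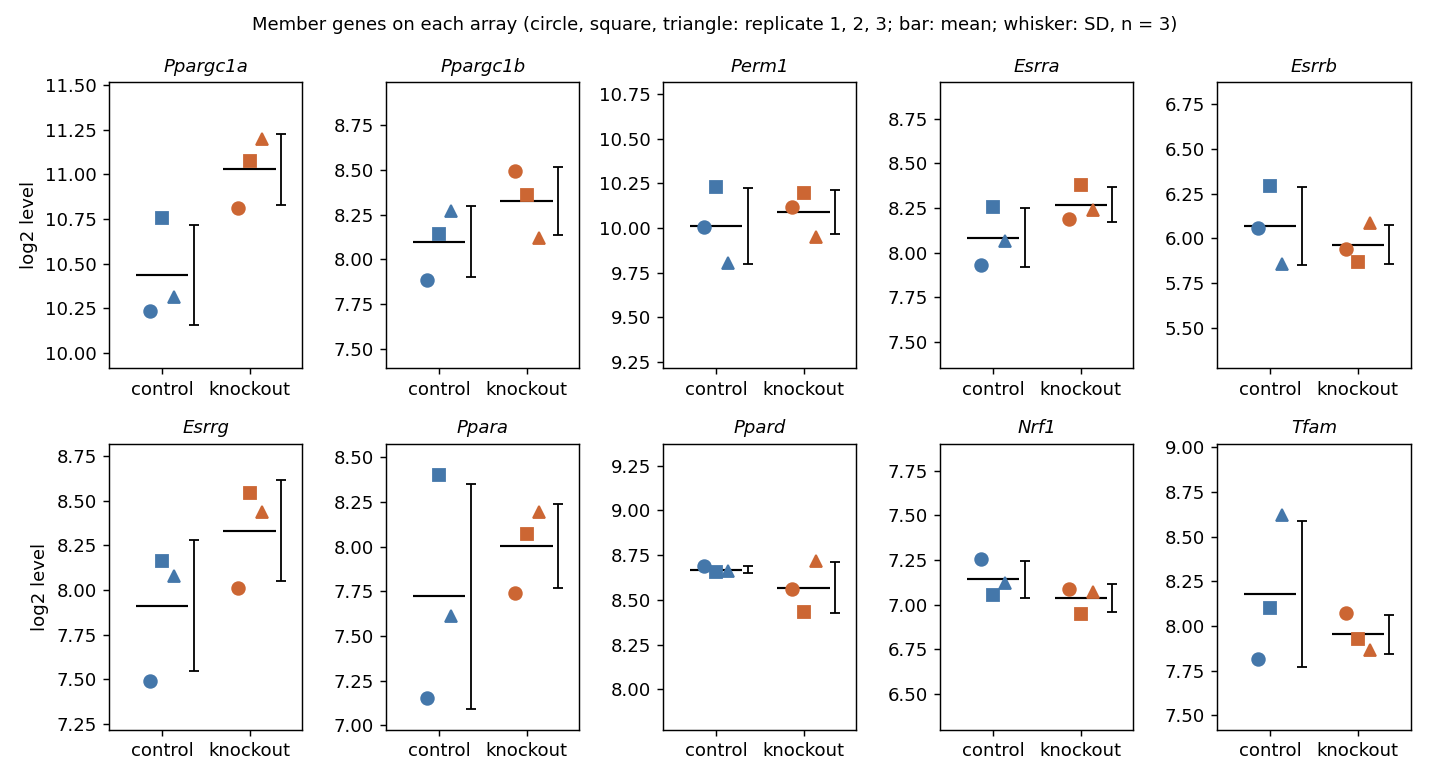
Log2 level (y axis, a span of 1.6 in every panel) of each of the 10 regulators on the 3 control (blue) and 3 knockout (orange) arrays, with the mean as a bar and the SD as a whisker. Only in Ppargc1a do all knockout arrays lie above all control arrays, and control replicate 1 (blue circle) is the lowest of 6 arrays for 6 of the 10 genes.

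Before the values, promoter sequence of 4 members is shown with the letters that factors of this system are known to bind. RefSeq promoter windows (mouse assembly GRCm38.p6) were searched for 9 of the 10 members, 14 windows in all. Each line gives the 250 bases before the annotated start, 5′ to 3′ on the gene's strand, with capitals for letters that matched a searched motif on either strand. Ppargc1a is shown as the one member with separated groups, Perm1 as a gene with ERR letters, and Esrra and Ppara as genes with NRF1 letters. The windows are chr5:51567726-51567975 on the minus strand, chr4:156215677-156215926 on the plus strand, chr19:6921809-6922058 on the minus strand and chr15:85735526-85735775 on the plus strand.
Ppargc1a: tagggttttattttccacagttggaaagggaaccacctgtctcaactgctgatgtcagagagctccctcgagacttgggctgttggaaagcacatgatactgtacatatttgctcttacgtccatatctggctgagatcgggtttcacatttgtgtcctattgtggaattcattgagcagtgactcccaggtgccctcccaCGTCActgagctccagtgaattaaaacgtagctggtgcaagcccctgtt
Perm1: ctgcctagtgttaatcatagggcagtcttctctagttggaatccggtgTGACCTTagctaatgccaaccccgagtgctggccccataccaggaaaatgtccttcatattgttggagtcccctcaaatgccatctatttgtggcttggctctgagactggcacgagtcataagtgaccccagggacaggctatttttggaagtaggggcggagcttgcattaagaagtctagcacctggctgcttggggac
Esrra: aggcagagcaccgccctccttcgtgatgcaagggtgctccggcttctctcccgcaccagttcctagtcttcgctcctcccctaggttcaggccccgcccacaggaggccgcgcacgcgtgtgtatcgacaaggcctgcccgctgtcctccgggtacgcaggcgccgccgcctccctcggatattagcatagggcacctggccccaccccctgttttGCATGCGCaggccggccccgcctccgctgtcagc
Ppara: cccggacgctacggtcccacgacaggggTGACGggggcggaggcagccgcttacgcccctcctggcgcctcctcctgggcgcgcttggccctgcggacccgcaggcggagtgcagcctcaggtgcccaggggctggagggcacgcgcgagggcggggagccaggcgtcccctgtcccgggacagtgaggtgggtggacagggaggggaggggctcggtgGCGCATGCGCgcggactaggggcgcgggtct

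Motifs were searched as TGACG for the half-site of the cyclic AMP response element, AAGGTCA for the extended half-site of ERR and GCATGCGC for the core of the NRF1 site. In the Ppargc1a window the capitals are TGACG on the reverse strand, 49 to 45 bases before the start, and 17.8% of 32851 windows of this length hold these letters. In Perm1 they are the reverse strand of AAGGTCA, 202 to 196 bases before the start, present in 4.08% of windows. The NRF1 core stands 34 to 27 bases before the start of Esrra. In Ppara it was found on both strands with overlap, from 31 to 22 bases before the start, and TGACG stands at 222 to 218. The NRF1 core is in 2.26% of windows. One of the windows of Esrrb holds TGACG at 158 to 154 and at 117 to 113 bases before the start. The windows of Esrrg, Nrf1, Tfam and Ppard held none of these letters. The search of the members left out a chromosome, and no window of Ppargc1b was among those searched. These are matches of letters, not measured binding.

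Among the coactivators, Ppargc1a had the largest difference, with the higher levels in knockout muscle. Its log2 level was 10.23, 10.75 and 10.31 in controls 1, 2 and 3, and 10.81, 11.08 and 11.20 in knockouts 1, 2 and 3. All 3 knockout values were above all control values, but knockout 1 lay close above control 2. The control mean was 10.44 ± 0.28 and the knockout mean 11.03 ± 0.20 (SD, n = 3 each), which is 1.51-fold higher (log2 difference 0.59, SE 0.16, 95% confidence interval 0.23 to 0.96). It was not called (limma, unadjusted p = 0.00549, adjusted p = 0.351), and stood at rank 347 of all genes by p. A larger difference in either direction was found in 263 genes, 1.19% of those tested. The log2 difference ran from 0.49 without control 1 to 0.75 without control 2, with adjusted p between 0.178 and 0.702 under the alternatives tried. The knockout was higher under each, but leaving out an array could not turn the direction, since the groups did not overlap. Several other alternatives change only the estimate of the spread or the genes tested and leave the difference as it was. Levels in a whole muscle cannot tell a different number of cells of a type from a different amount of RNA per cell.

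Ppargc1b, the closest relative of Ppargc1a and likewise a coactivator of ERR, had levels of 7.89, 8.14 and 8.27 in controls and 8.50, 8.36 and 8.12 in knockouts. Knockout 3 made the groups overlap, since it lay below 2 of the controls. The log2 difference was 0.23 (95% confidence interval −0.09 to 0.54) and was not called (limma, adjusted p = 0.766). Without control 1 it was 0.12 and without knockout 3 it was 0.33. Perm1, a striated muscle protein that is induced by PGC-1 and ERR and acts with them, had 10.01, 10.23 and 9.80 in controls and 10.12, 10.20 and 9.95 in knockouts. Its knockout values lay inside the control range, with a log2 difference of 0.08 (95% confidence interval −0.22 to 0.38, limma, adjusted p = 0.937), which was −0.03 without control 3. The upper ends of these intervals are 1.46-fold for Ppargc1b and 1.30-fold for Perm1, so the arrays do not show that either gene stayed at the control level.

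The estrogen-related receptors bind DNA without a known natural ligand and depend on PGC-1 for activity. Esrra, their most widely expressed member, had levels of 7.93, 8.26 and 8.07 in controls and 8.19, 8.38 and 8.24 in knockouts. Control 2 lay above knockouts 1 and 3, so the groups overlapped, and the log2 difference of 0.18 (95% confidence interval −0.08 to 0.45) was not called (limma, adjusted p = 0.769). Without control 1 it was 0.11 and without control 2 it was 0.27. Esrrg, the receptor tied to oxidative fibres, had 7.49, 8.16 and 8.08 in controls and 8.01, 8.54 and 8.44 in knockouts. Knockouts 2 and 3 were above all controls and knockout 1 was below controls 2 and 3. The log2 difference of 0.42 (SE 0.20, 95% confidence interval −0.04 to 0.88, a 1.34-fold higher mean) was the second largest among the members, without a call (limma, adjusted p = 0.660). It was 0.21 without control 1 and 0.58 without knockout 1. Esrrb, best known from stem cells and the inner ear, lay between 5.85 and 6.29 on the 6 arrays, close to background. Its log2 difference was −0.10 (95% confidence interval −0.40 to 0.19), and 0.01 without control 2.

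Of the PPAR receptors, which are switched on by fatty acids, Ppara varied most between animals. Its level was 7.15, 8.40 and 7.61 in controls and 7.74, 8.07 and 8.19 in knockouts. All knockout values lay inside the control range, and the control SD of 0.63 was the largest of any member in either group. The log2 difference was 0.28 (SE 0.28, 95% confidence interval −0.36 to 0.92, limma, adjusted p = 0.864), and it was −0.0034 without control 1 and 0.62 without control 2. Ppard, the receptor that dominates in muscle, had 8.69, 8.65 and 8.66 in controls, an SD of 0.018, and 8.56, 8.43 and 8.72 in knockouts. Its groups overlapped, with a log2 difference of −0.10 (95% confidence interval −0.34 to 0.14, limma, adjusted p = 0.872) that was −0.17 without knockout 3 and −0.03 without knockout 2. A second probe set for Ppard shares its annotation with another gene, was not used, and lay between 6.70 and 7.03.

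Nrf1 and Tfam were lower on average in knockout muscle, without a call. Nrf1, a DNA-binding activator of nuclear genes for mitochondrial proteins, had 7.25, 7.05 and 7.12 in controls and 7.09, 6.95 and 7.07 in knockouts, with overlap and a log2 difference of −0.11 (95% confidence interval −0.34 to 0.12, limma, adjusted p = 0.855). It was −0.05 without control 1 and −0.15 without control 2. Tfam, which packages and transcribes mitochondrial DNA, had 7.82, 8.10 and 8.62 in controls and 8.08, 7.92 and 7.86 in knockouts. Control 3 stood high, and the knockout arrays lay between controls 1 and 2. The log2 difference was −0.23 (SE 0.19, 95% confidence interval −0.66 to 0.20, limma, adjusted p = 0.835), and it was −0.0055 without control 3 and −0.41 without control 1.

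**Figure D2:**
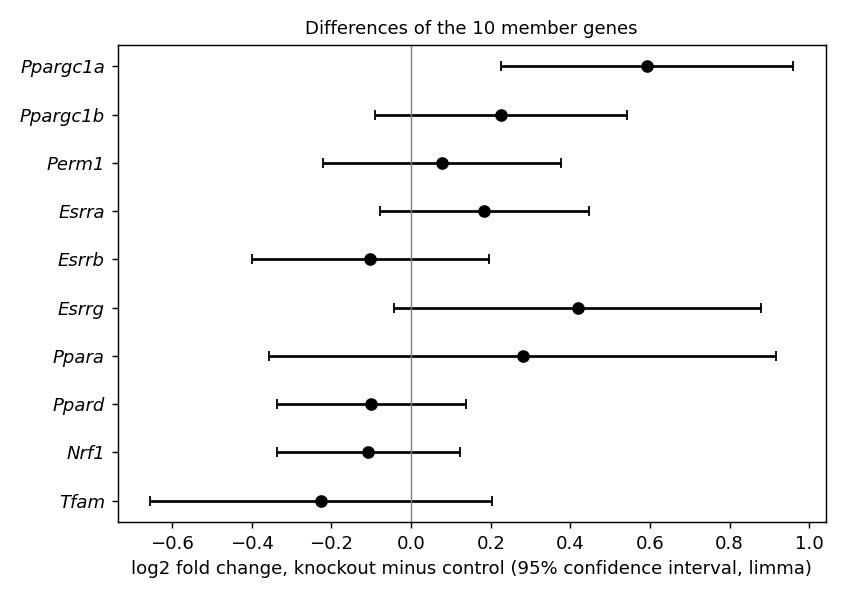
Log2 difference, knockout minus control, of each regulator (point) with its 95% confidence interval from limma (line). The interval of Ppargc1a, 0.23 to 0.96, lies above 0 before adjustment over all genes, and the intervals of the other members include 0.

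The members also varied from animal to animal, and several did so together. Control 1 had the lowest of 6 levels for 6 of the 10 members, Ppargc1a, Ppargc1b, Esrra, Esrrg, Ppara and Tfam, while it was lowest for 17.9% of all genes. It also had the highest level of Nrf1. Control 2 was the highest control for 6 of 10 members. Over the 6 arrays, Ppargc1a, Esrra, Esrrg and Ppara moved in the same direction in each of their 6 pairs, with Pearson's r between 0.777 and 0.911 (exact permutation p 0.0167 to 0.0792) and Spearman's rho between 0.657 and 0.886 (exact permutation p 0.0333 to 0.175). None passed Benjamini-Hochberg adjustment over the 45 pairs of members (adjusted exact permutation p 0.229 to 0.356 for r and 0.438 to 0.562 for rho). A pair standing alone could not pass with 6 arrays, since the smallest exact permutation p for r, 0.00139, adjusts to 0.0625. For rho the smallest, 0.00278, adjusts to 0.125. With each gene's group means subtracted, r was 0.766 to 0.946. Without the 2 arrays farthest from the median of the first gene of a pair, r ran from 0.0664 to 0.876, the lowest for Ppargc1a with Ppara, so that relation rests on controls 1 and 3. These 4 genes were picked after their values were seen.

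Nrf1 ran opposite to them. The order of the 6 arrays by Nrf1 was the exact reverse of their order by Esrra, with Spearman's rho of −1 (exact permutation p = 0.00278, adjusted 0.125) and Pearson's r of −0.976 (exact permutation p = 0.00139, the smallest that 6 arrays can give, adjusted 0.0625 over 45 pairs). The r was −0.971 without control 1 and knockout 2, and −0.965 with group means subtracted. With Esrrg the r of Nrf1 was −0.931, with Ppara −0.8 and with Ppargc1a −0.787 (exact permutation p 0.0111, 0.0611 and 0.0514, adjusted 0.229, 0.306 and 0.297). Spearman's rho was −0.886, −0.829 and −0.714 in these 3 pairs (exact permutation p 0.0333, 0.0583 and 0.136, adjusted 0.438, 0.438 and 0.562), and without the 2 farthest arrays r was −0.488, −0.623 and −0.343. Nrf1 spanned only 6.95 to 7.25, so its part of the relation is a small difference in level.

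**Figure D3:**
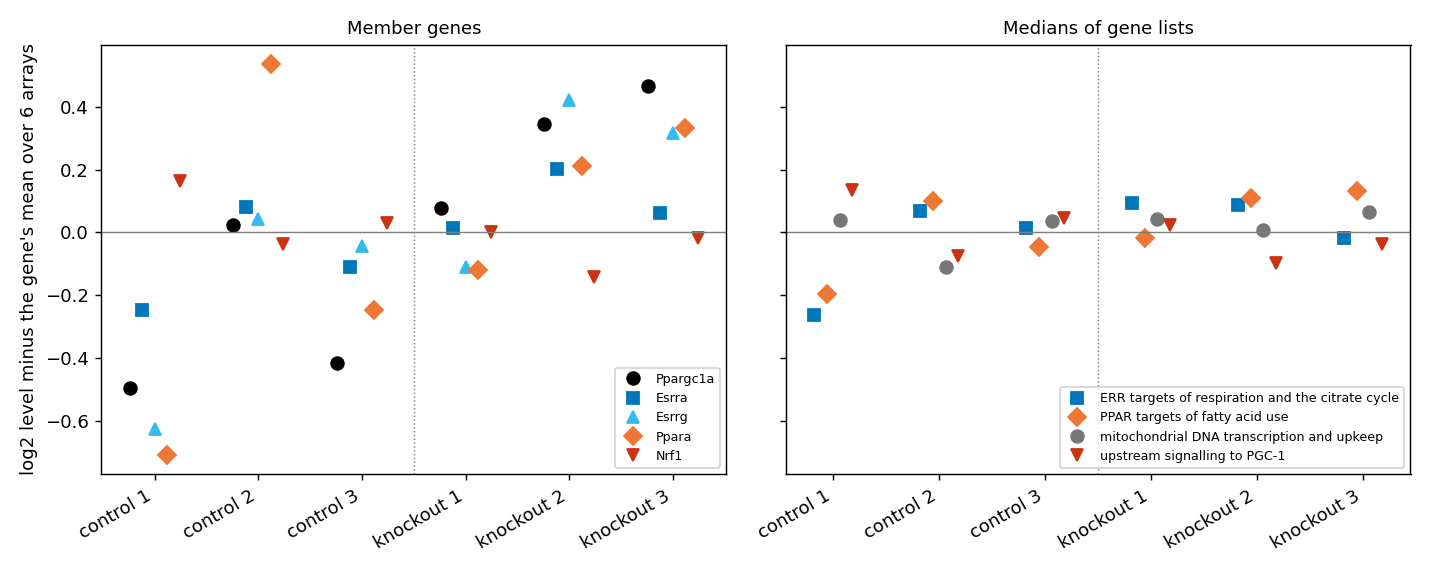
Left, log2 level minus each gene's mean over the 6 arrays for Ppargc1a, Esrra, Esrrg, Ppara and Nrf1, by array. Right, the median of the same quantity over the genes of 4 lists. On control 1 the ERR targets (−0.26) and PPAR targets (−0.20) lie below 0 and the upstream signalling genes (0.14) above it, as Nrf1 does (0.17).

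Genes known as targets of ERR and PGC-1 in respiration and the citrate cycle were slightly higher in knockout muscle as a list. Of 20 measured (of 21 listed), 19 were higher and 1 lower, with a median log2 difference of 0.13, where all genes had 49.9% higher. The list had 0 called genes (limma), 0 at an unadjusted p under 0.05 and differences from −0.03 to 0.26. Cycs, which encodes the electron carrier cytochrome c, was at 12.23, 12.70 and 12.72 in controls and 12.83, 12.80 and 12.50 in knockouts, a log2 difference of 0.16 (limma, adjusted p = 0.862). Idh3a, a citrate cycle dehydrogenase subunit, differed by 0.14, and Mfn2, a mitochondrial fusion protein, by −0.03 (limma, adjusted p = 0.850 and 0.968). On control 1, 20 of 20 of these genes had their lowest level of the 6 arrays. Without control 1, 11 of 20 were higher and the median was 0.01.

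PPAR targets of fatty acid use had a like pattern. Of 24 measured (of 28 listed), 21 were higher and 3 lower, with a median of 0.13, 0 called and 2 at an unadjusted p under 0.05, 1 in each direction (limma). Among all genes 8.04% passed this threshold. Pdk4, the kinase that turns off pyruvate dehydrogenase, had 10.79, 12.59 and 12.35 in controls and 12.51, 12.87 and 12.92 in knockouts, a log2 difference of 0.86 (SE 0.41, limma, adjusted p = 0.652). Control 1 stood far below the other 5 arrays, and knockout 1 lay below control 2. Ucp3, a mitochondrial carrier of muscle, had 8.82, 10.43 and 10.16 in controls and 10.10, 10.47 and 10.35 in knockouts, again with control 1 apart (log2 difference 0.50, limma, adjusted p = 0.802). The 3 lower genes were Vldlr (−0.34), Acot2 (−0.27) and Acadvl (−0.04), and Slc25a34 (0.43) and Vldlr were those with an unadjusted p under 0.05 (limma, adjusted p = 0.583 and 0.576), all 4 named after their values were seen. Control 1 was the lowest array for 16 of 24 genes. Without it 17 of 24 were higher and the median was 0.06.

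Other genes of the PGC-1alpha programme in muscle were mixed. Of 19 measured, 11 were higher and 8 lower, with a median of 0.12 that was 0.0085 without control 1 and −0.03 without control 3. None was called (limma), and 2 were higher and 1 lower at an unadjusted p under 0.05, as were 3.93% and 4.12% of all genes. Vegfa, the growth factor of blood vessels, was at 10.58, 10.89 and 10.83 in controls and 10.89, 11.15 and 11.08 in knockouts, without overlap (log2 difference 0.27, limma, adjusted p = 0.621). Slc2a4, the insulin-responsive glucose transporter, was 11.30, 11.34 and 11.33 in controls and 11.50, 11.46 and 11.40 in knockouts, also without overlap (0.13, limma, adjusted p = 0.798). Fndc5, the precursor of irisin, differed by −0.24 (limma, adjusted p = 0.859). Kyat3, a kynurenine aminotransferase, was higher by 0.31 and Metrnl, a secreted factor, lower by 0.26 on average, both without overlap (limma, adjusted p = 0.494 and 0.506) and both named after their values were seen. The slow myosin Myh7, a fibre-type marker named likewise, was at 10.36, 10.95 and 9.50 in controls and 9.77, 10.46 and 10.77 in knockouts. Its groups overlapped.

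Genes of mitochondrial DNA transcription and upkeep differed little. Of 23 measured (of 24 listed), 17 were higher and 6 lower, with a median of 0.04, 0 called and 0 at an unadjusted p under 0.05 (limma). Without control 2, 12 were higher. Tfb2m, a mitochondrial transcription factor that acts beside TFAM, had a log2 difference of 0.05, the mitochondrial RNA polymerase Polrmt 0.08 and the DNA polymerase Polg 0.04 (limma, adjusted p = 0.952, 0.907 and 0.978).

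Upstream signalling to PGC-1 comprises AMP-activated kinase, calcium-dependent kinases, p38 and the factors they act on. Of 35 measured genes (of 37 listed), 11 were higher and 24 lower, with a median of −0.06. None was called (limma), while 2 were higher and 4 lower at an unadjusted p under 0.05. Over all genes, 3.93% were higher and 4.12% lower at this threshold. Mapk14, a p38 kinase that phosphorylates PGC-1alpha, was at 9.02, 9.01 and 9.16 in controls and 8.63, 8.46 and 8.69 in knockouts. All knockout values were below all control values, as in 6.65% of all genes. The log2 difference was −0.47 (SE 0.10, limma, unadjusted p = 0.00157, adjusted p = 0.233). Prkaa2, the main catalytic subunit of AMP-activated kinase in muscle, differed by −0.22 and the deacetylase Sirt1 by −0.08, both with overlap (limma, adjusted p = 0.780 and 0.927). Control 1 was the highest array for 18 of the 35 genes, and the list's median was −0.02 without it and −0.12 without control 2. Of the others with an unadjusted p under 0.05, named after their values were seen, Camk2g (−0.48), Nampt (−0.27) and Tfeb (−0.26) were lower on average, and Map2k3 (0.42) and Prkaa1 (0.30) were higher (limma, adjusted p between 0.284 and 0.601).

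Partners, coactivators and corepressors were mixed as well. Of 34 measured (of 36 listed), 12 were higher and 22 lower, with a median of −0.05, 0 called and 3 in each direction at an unadjusted p under 0.05 (limma). That threshold was passed by 3.93% of all genes as higher and 4.12% as lower. Rxra, the retinoid X receptor with which PPARs bind DNA, differed by −0.32, and Nrip1, a corepressor of ERR and PPAR targets, by 0.25, both with overlap (limma, adjusted p = 0.700 and 0.657). Among genes named after their values were seen, Nr4a3, an orphan receptor induced by exercise, was 8.20, 7.67 and 8.22 in controls and 8.29, 9.32 and 9.54 in knockouts. Its knockout values lay above all controls, with knockout 1 close to them, a 2.03-fold higher mean (log2 difference 1.02, SE 0.30, limma, adjusted p = 0.425). Rb1 (0.41) and Thrb (0.29) were higher on average, and Rxrg (−0.62), Nr1d1 (−0.51) and Thra (−0.29) lower (limma, adjusted p between 0.400 and 0.599). The thyroid hormone receptors Thra and Thrb thus differed in opposite directions on average, each without overlap, as 13.4% of all genes did in either direction.

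**Figure D4:**
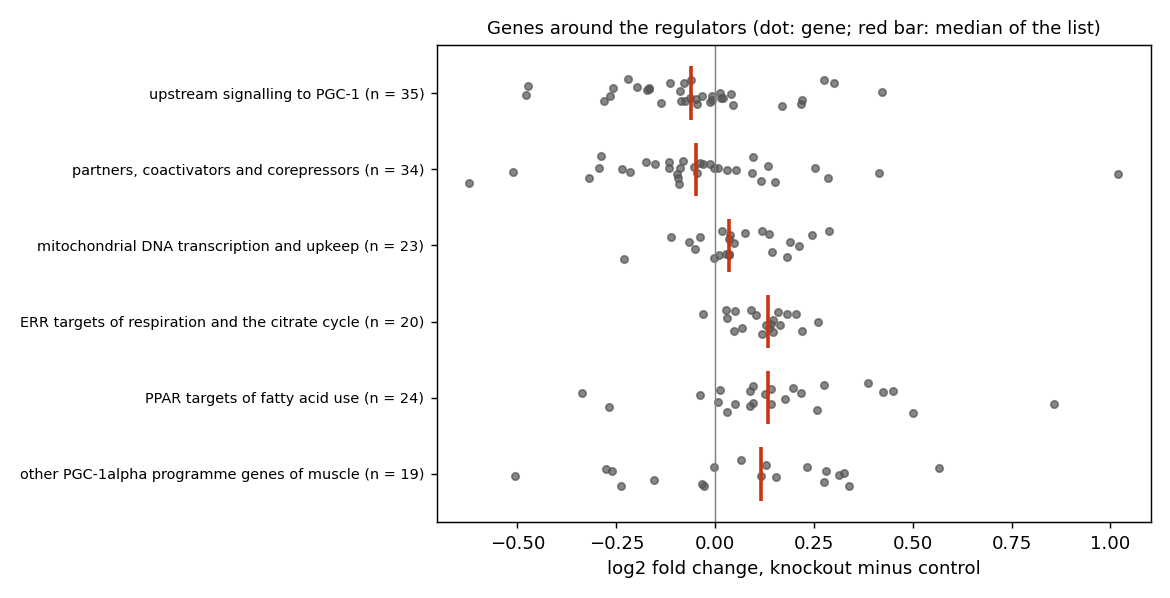
Log2 difference, knockout minus control, of each gene (dot) in 6 lists around the regulators, with the median of each list (red bar). Medians run from −0.06 in upstream signalling to 0.13 in the ERR and PPAR target lists, and 0 of the dots is a called gene.

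Markers of other cells were set beside these values, as mean log2 level over each list. Adipocyte markers, relevant because fat cells hold PPAR targets, ran from 6.88 to 7.38 in controls and from 6.83 to 7.41 in knockouts over 9 genes, with Lep and Ucp1 below background. Control 1 had 6.88, the lowest control. Endothelial markers ran from 8.19 to 8.43 and from 8.29 to 8.33 over 7 genes, again lowest on control 1. Macrophage markers ran from 6.74 to 7.04 and from 6.75 to 7.05 over 7 genes. Fibroblast and fibro-adipogenic markers ran from 9.59 to 10.05 and from 9.08 to 10.31 over 6 genes, and Schwann cell markers from 6.42 to 6.49 and from 6.39 to 6.58 over 4. The ranges of these 5 lists overlapped between groups. Tendon markers were lower on average in knockout muscle for 7 of 7 genes, with a median log2 difference of −0.91. Of the 7, 5 had an unadjusted p under 0.05, as 4.12% of all genes did in this direction, and none was called (limma, smallest adjusted p = 0.425). Their mean level was 7.40, 8.12 and 8.08 in controls and 7.55, 7.16 and 6.62 in knockouts. Control 1 lay below knockout 1, so the groups overlapped, and controls 2 and 3 lay above all knockouts. Satellite cell markers did not overlap in mean level, at 6.67 to 6.72 in controls and 6.47 to 6.59 in knockouts over 6 genes, with Calcr below background. Of the 6, 4 were lower and 2 higher on average, and 2 had all knockouts below all controls, as did 6.65% of all genes. At an unadjusted p under 0.05, 2 were lower, as were 4.12% of all genes, and none was called (limma, smallest adjusted p = 0.461). The list's median deviation from each gene's mean did overlap, at 0.046 on control 2 and 0.047 on knockout 2. Muscle fibre markers ran from 13.526 to 13.684 in controls and from 13.479 to 13.525 in knockouts, which narrowly do not overlap. They lie near the top of the scale, where differences may be compressed, which was not measured. Of 8 fibre markers 7 were lower on average, with a median log2 difference of −0.03, and 4 had all knockouts below all controls, a pattern found in 6.65% of all genes. The 4 were Mylpf, a fast myosin light chain (−0.46), Myh1, a fast myosin heavy chain (−0.49), Acta1, the skeletal actin (−0.05), and Ttn, the titin gene (−0.05). Of these Mylpf and Myh1 had an unadjusted p under 0.05, without a call (limma, adjusted p = 0.221 and 0.418), and the 4 were named after their values were seen. The part of these cells in the levels of the regulators was not tested.

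The 5 genes whose log2 levels followed those of Ppargc1a most closely over the 6 arrays, among 11860 named genes above background, were Diaph1, Gbe1, Fhl1, Cog7 and Fbxo44. Pearson's r was 0.992, 0.988, 0.984, 0.982 and 0.981, and Spearman's rho lay between 0.886 and 1. Diaph1 encodes a formin that builds actin filaments, Gbe1 the glycogen branching enzyme and Fhl1 a muscle LIM protein. Without controls 1 and 3 the r values lay between 0.924 and 0.991. They were picked as the highest of many values and so carry no test. Each had a higher mean in knockout muscle, by 0.18 to 0.40 on the log2 scale. That direction follows from the choice, since all knockouts lay above all controls in Ppargc1a. None of the 5 was called (limma, adjusted p between 0.420 and 0.737).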

How the data were processed

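Log2 probe set summaries of 6 arrays, 41345 per array, were used as deposited. Per the submitters' processing notes, the authors used RMA, oligo and limma, named there without versions, roles or order. RMA corrects background, makes intensity distributions alike and summarises probes, which compresses differences of dim transcripts. The number of arrays limits the precision. No scanner files or scan dates entered, so no batch could be examined.

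Gene names came from the platform table at GEO, whose symbols may be outdated. In it 23521 had 1 gene symbol, 1814 several and 16010 none. Of several probe sets of a gene, the one with the highest mean over the 6 arrays was taken. The test was limma 3.58.1 under R 4.3.3 (lmFit and eBayes, group means only, two-sided, Benjamini-Hochberg over all genes) with no filter on dim genes. Gene lists are described by counts and medians. Correlations over arrays used an exact two-sided permutation test. Figures were made in Python 3.11.15 with matplotlib 3.10.9.

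The members and lists were chosen with earlier results of these data known. Named genes were the 10 members, Map3k7, the first 3 genes of each list where measured, any called list gene, and the 5 genes most like Ppargc1a. Other names were chosen after their values were seen, as said beside them. Ncor1 and Cpt1b, which the rule names, had no probe set of their own. In 10 simulations of 22180 genes with 200 changed, 3 against 3 arrays, limma found 53.7% of the 1.5-fold changes, 97.6% of the 2-fold changes and 99.8% of the 4-fold changes, and 4.87% of its calls were false. The simulated noise was normal and independent between genes, with each gene's spread as limma had already shrunk it. In the data 21 genes were called, fewer than the 200 changed here, so the shares found may be too high for these arrays.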

Additional observations from a re-analysis of the deposited data

How the results depend on the processing

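No member was called under any of the 16 alternatives to limma's default fit: median centring, quantile normalization, a mean over each gene's probe sets, every probe set tested, 2 filters on dim genes, an intensity trend with robust prior, no variance sharing, array weights, the replicate block, and leaving out each array. Esrrb, below the median level of all genes, entered 15 of the 16. At an unadjusted p under 0.05 the alternatives gave 1 to 3 members. Directions turned for 3 members when 1 control was left out: Perm1 ran from −0.027 without control replicate 3 to 0.19, Esrrb from −0.21 to 0.0099 without control replicate 2, and Ppara from −0.0034 without control replicate 1 to 0.62 (log2 difference over the 6 arrays left out in turn). The 21 genes called over all genes became 6 with every probe set tested, 45 when only genes above background entered, 53 with genes above the median only, 36 with an intensity trend and robust prior, and 0 with no variance sharing. Leaving out 1 array gave 2 to 11. The replicate block gave 17, and in it Esrrg had an unadjusted p of 0.0048 (limma, adjusted p = 0.317), against 0.0699 in the main fit. Arrays of the same number did not deviate together (correlations 0.0791, 0.212 and −0.072, and 3 of 6 arrays correlated best with their own number), so they were not taken as pairs. The count of ERR targets higher in the knockout, an alternative added after seeing the data, went from 19 to 11 without control 1. With 3 arrays a group, differences near 1.5-fold are often missed.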
